A study of Mus musculus with 6 samples.

Results

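Imprinted genes are expressed mainly from the allele of 1 parent, and 37 such mouse genes were followed here in the colon of mice deficient in a folate enzyme. They are genes known to be imprinted in the mouse, whatever their level here. Each was represented by the array row (a transcript cluster, meaning the pooled probes of 1 gene) that carries its symbol alone, or by the row of highest mean where there were several. By this rule 31 of the 37 genes were measured, among 22180 gene symbols in all. Snrpn, H19, Rtl1 and Mirg had only rows that also carry the symbol of another gene, and Zrsr1 and Slc22a3 had no row under their symbol, so none of these 6 is reported. Gnas, Peg3, Usp29, Meg3 and Rian had such shared rows besides a row of their own, and the shared rows were not used.

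The samples were normal colonic mucosa beside tumours, from 2 Mthfd1S+/- and 4 wild-type (WT, Mthfd1S+/+) male BALB/c mice, with 1 Affymetrix Mouse Gene 2.0 ST array per mouse. Mthfd1S+/- mice carry 1 allele deficient in the synthetase activity of MTHFD1, the cytosolic enzyme that joins formate to tetrahydrofolate. All 6 mice, WT included, had received the carcinogen azoxymethane (AOM) at 6 mg/kg and then 2 cycles of 4 days of 3% dextran sulfate sodium (DSS), a detergent that damages the gut lining, beginning 1 and 4 weeks after the injection. They were killed 13 weeks after it. The labels give an age of 7 months, the protocol an age of 3 months at injection, and backcrossing to BALB/c for at least 10 generations. No untreated mice and no females were among the arrays.

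Imprinting rests on DNA methylation that is set in the egg or the sperm at imprinting control regions and copied at each cell division by Dnmt1, with Zfp57 and Trim28 guarding it in the early embryo. The methyl groups come from S-adenosylmethionine, which the folate cycle helps to replenish, so imprinted genes are a common readout in studies of folate supply. Many of these genes act on growth, are strong in the fetus and decline after birth, and loss of imprinting of IGF2 is known from human colorectal tumours. The arrays add up both alleles and carry no methylation values, so they show the summed level of each gene and not its parental origin.

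The arrays had medians of 5.48 to 5.53 on the log2 scale, and all values below are log2 array values unless a log2 fold change, taken as Mthfd1S+/- minus WT, is named. Mthfd1 itself read 7.96 and 7.63 in the Mthfd1S+/- mice, against 7.64, 7.63, 7.50 and 7.75 in the WT mice (log2 fold change 0.17 ± 0.12, SE; adjusted p 0.890 in limma). Whether the allele alters the amount of Mthfd1 RNA is not stated in the labels, so the genotypes could not be checked by it. Markers of colonic epithelium were bright on every array, and none of 12 absorptive colonocyte or 11 goblet cell markers was dim. A row is called dim where its mean lies under 5.24, the 95th percentile of 1400 rows for olfactory and vomeronasal receptors, and a low value there cannot be told from background. Smooth muscle markers were present as well: their gene-centred mean, which is 0 for the average of the 6 mice, was -0.064 and 0.41 in Mthfd1S+/- mice 1 and 2, against -0.18, -0.24, -0.032 and 0.10 in WT mice 1 to 4. In bulk tissue, fewer cells of a type and less RNA per cell cannot be told apart.

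No imprinted gene passed the test between the genotypes. Of the 31 measured genes 0 passed an adjusted p of 0.05 in limma, where 0 of all 23521 rows passed (0%) and the smallest adjusted p of a member was 0.837. At an unadjusted p under 0.05 there was 1 member, Peg3 (3.23%), against 5.79% of all rows; with unmoderated least squares 0 members passed the adjusted threshold and 0 were at an unadjusted p under 0.05. In limma that unadjusted count was 5 without WT mouse 4, 3 without WT mouse 3, 2 without WT mouse 1 and 0 without WT mouse 2. The share of all rows was not taken in these fits, so the counts cannot be set against it. The log2 fold change was above 0 for 20 members (64.5%, against 54.0% of all rows) and below 0 for 11 (against 46.0% of all rows), and the median was 0.092 against 0.012. The values of the 2 genotypes did not overlap for 3 members, 2 higher (Peg3 and the row named Meg3) and 1 lower (Kcnq1ot1) in Mthfd1S+/- mice, which is 9.68% against 14.0% of all rows. The Meg3 row may read the opposite strand, as described with its domain, and without it 1 of the 30 remaining members, Peg3, was higher without overlap. No member was 1.5-fold apart. The largest difference, that of Dlk1, was 1.45-fold. Both statements depended on single mice: without Mthfd1S+/- mouse 1, 5 members (Rian, Dlk1, Ndn, Sgce and Mest) were past 1.5-fold with Rian the largest at a log2 fold change of 0.78, and without WT mouse 4 Dlk1 was past it at 0.76. Without Mthfd1S+/- mouse 2 none was, and the largest was 0.38 for Peg12. The share of all rows past 1.5-fold was not taken.

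**Figure D1:**
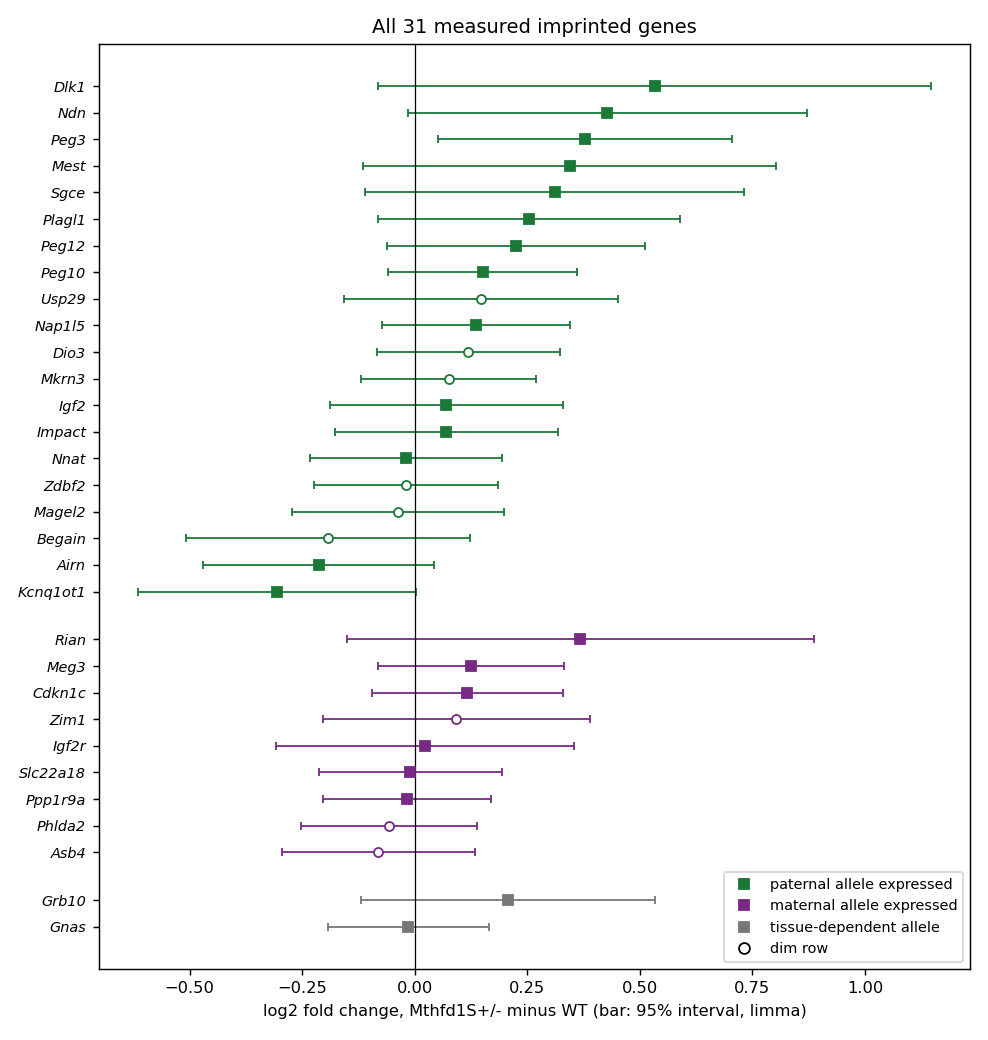
Log2 fold change of each of the 31 measured imprinted genes (x axis, Mthfd1S+/- minus WT; bars, 95% intervals from limma with 2 and 4 mice), grouped by the allele that is expressed; open circles are dim rows. Within each group the genes are drawn in order of log2 fold change. The interval of Peg3 lies above 0.

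By parental origin, the 20 measured genes expressed from the paternal allele had a median log2 fold change of 0.13, and 14 of them were above 0. The 9 expressed from the maternal allele had a median of 0.023, with 5 above 0, the uncertain Meg3 row among them. Gnas and Grb10, whose expressed allele depends on the tissue, had -0.014 and 0.21. The paternally expressed group was not uniform: its members ran from -0.31 for Kcnq1ot1 to 0.53 for Dlk1. One mouse stood out, since 12 of the 31 genes had their highest value in Mthfd1S+/- mouse 2 (38.7%, against 19.3% of all rows), and 10 of these 12 were paternally expressed. Mthfd1S+/- mouse 1 was highest for 6 members, where 19.5% of all rows were highest in it. At the other end, WT mice 1 and 2 held the lowest value of 17 members, where 37.2% of all rows were lowest in either.

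**Figure D2:**
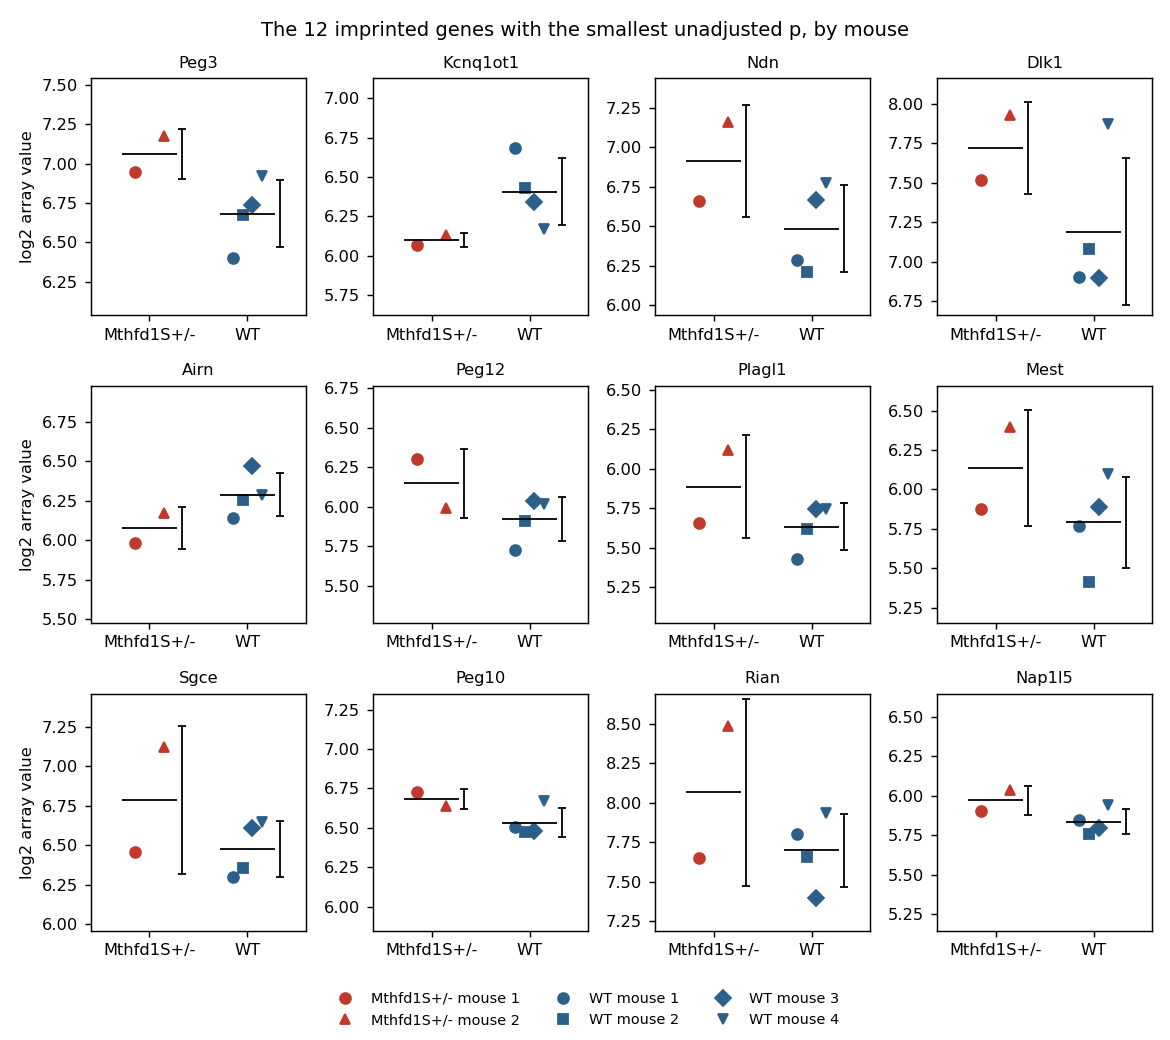
Log2 array value (y axis, each panel spanning 1.5 units) in each mouse for the 12 imprinted genes with the smallest unadjusted p; horizontal lines are group means and vertical bars the SD (n = 2 Mthfd1S+/-, n = 4 WT). For Ndn, Dlk1, Plagl1, Mest, Sgce and Rian Mthfd1S+/- mouse 2 is the highest point, while mouse 1 lies among the WT mice for all of these.

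The Peg3 domain on chromosome 7 holds zinc finger and ubiquitin protease genes around a shared control region. Peg3, a paternally expressed zinc finger protein, read 6.95 and 7.17 in the Mthfd1S+/- mice, against 6.40, 6.67, 6.74 and 6.92 in the WT mice. Both Mthfd1S+/- mice lay above all 4 WT mice, mouse 1 only just above WT mouse 4. The means were 7.06 ± 0.16 (SD, n = 2) and 6.68 ± 0.21 (SD, n = 4), and the log2 fold change was 0.38 ± 0.14 (SE; 95% interval 0.051 to 0.70), with an unadjusted p of 0.0285 and an adjusted p of 0.837 in limma. An exact two-sided permutation test gave 0.133, where the 15 splits of 6 mice allow no p under 0.0667. The log2 fold change was 0.26 without Mthfd1S+/- mouse 2 and 0.49 without mouse 1.

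Usp29, a paternally expressed ubiquitin-specific protease, begins 96 bases from the start of Peg3, on the other strand (GRCm38.p6). It read 3.16 and 3.52 in the Mthfd1S+/- mice, against 3.00, 3.15, 3.29 and 3.33 in the WT mice. The row is dim, so these values cannot be told from background, and the groups overlapped. Its log2 fold change was 0.15 ± 0.13 (SE). Zim1, the maternally expressed zinc finger gene of the domain, was dim too, at 3.62 and 4.05 in the Mthfd1S+/- mice against 3.67 to 3.88 in the WT mice, and the 2 Mthfd1S+/- mice lay on either side of the WT range. The window around the Peg3 start, which shares 263 of its 300 bases with that of Usp29, is shown because both genes start in it. It spans chr7:6730370-6730669 on the minus strand (RefSeq, GRCm38.p6), and capitals mark the 13 CG pairs, the sites that DNA methylation acts on.
Peg3: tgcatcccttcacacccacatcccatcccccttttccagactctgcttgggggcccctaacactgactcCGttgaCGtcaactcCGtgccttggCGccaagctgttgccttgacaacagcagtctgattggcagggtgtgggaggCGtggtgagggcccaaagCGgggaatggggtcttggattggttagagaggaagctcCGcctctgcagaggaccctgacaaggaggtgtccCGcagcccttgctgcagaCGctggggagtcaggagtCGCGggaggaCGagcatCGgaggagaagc

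The Snrpn-Ndn domain, also on chromosome 7, is paternally expressed throughout its measured members. Ndn, which encodes necdin, a MAGE family protein of neurons and mesenchyme, read 6.66 and 7.16 in the Mthfd1S+/- mice, against 6.29, 6.21, 6.66 and 6.77 in the WT mice. Mouse 1 lay within the WT range and mouse 2 above it. Its log2 fold change was 0.43 ± 0.19 (SE), with an adjusted p in limma of 0.837 (0.0570 before adjustment), and it was 0.18 without mouse 2 and 0.68 without mouse 1. Peg12, a Frat family gene, showed another order, with 6.30 and 5.99 in the Mthfd1S+/- mice against 5.73, 5.91, 6.03 and 6.02 in the WT mice. Here mouse 1 was the highest and mouse 2 lay among the WT mice, and the log2 fold change was 0.22 ± 0.12 (SE), or 0.38 without mouse 2 and 0.070 without mouse 1. Magel2, a second MAGE family gene, and Mkrn3, a ubiquitin ligase of the makorin family, were dim, and Magel2 read 4.88 and 4.58 in the Mthfd1S+/- mice, against 4.71 to 4.81 in the WT mice. Their log2 fold changes were -0.037 ± 0.10 and 0.075 ± 0.085 (SE). Neighbours in this domain therefore did not share 1 order of mice.

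On proximal chromosome 6, Sgce and Peg10 face away from each other across 101 bases and are both paternally expressed. Sgce, the membrane protein epsilon-sarcoglycan, read 6.46 and 7.12 in the Mthfd1S+/- mice, against 6.30, 6.35, 6.61 and 6.65 in the WT mice. Mouse 1 lay inside the WT range and mouse 2 above it: the log2 fold change was 0.31 ± 0.18 (SE), -0.020 without mouse 2 and 0.64 without mouse 1. Peg10, derived from a retrotransposon gag gene, read 6.73 and 6.64 in the Mthfd1S+/- mice, against 6.50, 6.47, 6.48 and 6.67 in the WT mice. Its log2 fold change was 0.15 ± 0.092 (SE), and mouse 1 rather than mouse 2 was the highest, so the pair did not share the order of the mice. The maternally expressed neighbours stayed close to 0: Ppp1r9a, the actin-binding protein neurabin, had -0.017 ± 0.081 (SE), and Asb4, of the SOCS box family, had -0.081 ± 0.094 on a dim row. Mest, a paternally expressed gene of the hydrolase fold family further along the chromosome, read 5.88 and 6.40 in the Mthfd1S+/- mice, against 5.77, 5.41, 5.89 and 6.10 in the WT mice. It resembled Ndn and Sgce, with a log2 fold change of 0.34 ± 0.20 (SE), 0.083 without mouse 2 and 0.60 without mouse 1.

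Plagl1, a paternally expressed zinc finger transcription factor on chromosome 10, is known to act on other imprinted genes. It read 5.66 and 6.12 in the Mthfd1S+/- mice, against 5.43, 5.62, 5.74 and 5.74 in the WT mice. Mouse 1 lay inside the WT range. For Plagl1 the log2 fold change was 0.25 ± 0.15 (SE), 0.022 without mouse 2 and 0.49 without mouse 1. A second, very dim row named Plagl1 had -0.14 ± 0.16 (SE). The windows of Ndn, Mest and Plagl1 are shown because these 3 genes, on 3 chromosomes, were all highest in Mthfd1S+/- mouse 2. They lie at chr7:62348027-62348326 (plus strand, 11 CG pairs), chr6:30737800-30738099 (plus strand, 17 CG pairs) and chr10:13090582-13090881 (plus strand, 26 CG pairs) in RefSeq's GRCm38.p6, with CG pairs in capitals. For Mest, which has 3 windows, 1 of the 2 with the most copies of the hexamer TGCCGC is printed. This hexamer is the core of the motif that Zfp57 recognises when it is methylated.
Ndn: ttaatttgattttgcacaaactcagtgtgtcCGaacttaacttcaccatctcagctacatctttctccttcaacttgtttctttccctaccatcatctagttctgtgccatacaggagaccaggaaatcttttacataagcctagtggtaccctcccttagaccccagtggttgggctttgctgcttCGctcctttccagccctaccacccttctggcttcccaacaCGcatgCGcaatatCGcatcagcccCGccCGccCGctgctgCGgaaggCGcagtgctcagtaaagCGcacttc
Mest: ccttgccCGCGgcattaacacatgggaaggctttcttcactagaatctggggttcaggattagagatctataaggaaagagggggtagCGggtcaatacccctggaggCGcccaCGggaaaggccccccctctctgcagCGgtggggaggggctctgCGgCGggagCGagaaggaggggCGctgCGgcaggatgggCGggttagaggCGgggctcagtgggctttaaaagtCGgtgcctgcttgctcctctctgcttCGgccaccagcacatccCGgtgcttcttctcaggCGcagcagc
Plagl1: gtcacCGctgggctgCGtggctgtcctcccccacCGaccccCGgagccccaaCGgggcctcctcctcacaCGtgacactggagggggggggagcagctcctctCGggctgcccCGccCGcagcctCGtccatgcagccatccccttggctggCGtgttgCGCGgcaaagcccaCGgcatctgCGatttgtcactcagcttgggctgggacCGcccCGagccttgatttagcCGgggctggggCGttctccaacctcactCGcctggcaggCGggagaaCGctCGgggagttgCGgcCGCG

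TGCCGC on either strand was found 2 times in the Mest window, 1 time in the Plagl1 window and not in those of Peg3 and Ndn. Promoter windows, from 250 bases before to 50 bases after a start, were on hand for 31 of the 37 imprinted genes, with 51 windows in all. These are not the 31 measured genes: Snrpn, Zrsr1, Mirg and Slc22a3 are among them, while Sgce, Peg10, Cdkn1c and Impact are not. Of the 51 windows, 11 held TGCCGC on either strand (21.6%), against 11.6% of all 32851 windows. The 11 belong to 10 genes, Snrpn among them, and 2 are windows of Mest that overlap almost fully. The median number of CG pairs was 14 per window in the imprinted genes and 7 in all windows. These counts describe the letters only, since imprinting control regions often lie outside such windows.

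The Dlk1-Dio3 domain on chromosome 12 contains protein genes read from the paternal allele and long noncoding RNAs read from the maternal one. Dlk1, a membrane ligand related to Notch ligands that restrains adipocyte differentiation, read 7.52 and 7.93 in the Mthfd1S+/- mice, against 6.90, 7.08, 6.90 and 7.88 in the WT mice. WT mouse 4 was level with Mthfd1S+/- mouse 2, and the other 3 WT mice lay below both. The log2 fold change was 0.53 ± 0.27 (SE), with an adjusted p of 0.855 in limma, 0.33 without Mthfd1S+/- mouse 2 and 0.74 without mouse 1. Dio3, the deiodinase that inactivates thyroid hormone, and Begain, a protein of synapses, were dim, with log2 fold changes of 0.12 ± 0.089 and -0.19 ± 0.14 (SE). Begain had -0.45 without mouse 1 and 0.065 without mouse 2. The row that carries Meg3 alone, at 5.51 and 5.42 in the Mthfd1S+/- mice against 5.31, 5.23, 5.40 and 5.41 in the WT mice, needs a caution about its strand. Row numbers on this array run by chromosome and strand. Of the 10 named neighbours of this row 8 are genes on the minus strand, while Meg3 is on the plus strand. As the neighbours do not all share 1 strand, the check given with Nnat below does not cover this row. The row may read the opposite strand, and its log2 fold change of 0.13 ± 0.090 (SE) is not given as a level of Meg3.

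Rian, a maternally expressed noncoding RNA that carries small nucleolar RNAs and microRNAs, read 7.65 and 8.48 in the Mthfd1S+/- mice, against 7.80, 7.66, 7.40 and 7.93 in the WT mice. Mouse 2 stood above every other mouse, and mouse 1 was below 3 of the WT mice. For Rian the log2 fold change was 0.37 ± 0.23 (SE), -0.050 without mouse 2 and 0.78 without mouse 1. Between Dlk1 and Dio3 lie 62 RefSeq genes of small RNAs, of which 43, all of them microRNA genes, had a row of their own and 29 of these rows were dim. Their log2 fold changes ran from -0.34 to 0.51 with a median of 0.052. Of the 43, 1 was at an unadjusted p under 0.05 and higher (3.36% of all rows), and 0 were lower (2.44% of all rows). Of the 43 rows, 21 were highest in Mthfd1S+/- mouse 2 (48.8%, against 19.3% of all rows). Their gene-centred mean was -0.13 and 0.19 in Mthfd1S+/- mice 1 and 2, against 0.024, -0.039, -0.11 and 0.067 in WT mice 1 to 4. For Rian the same values were -0.17 and 0.66, against -0.017, -0.16, -0.42 and 0.11. Mthfd1S+/- mouse 2, WT mouse 4 and WT mouse 1 were the top 3 in both, in that order.

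Among these microRNA genes, 6 spanned more than 1 log2 unit across the 6 mice, and 5 of the 6 were highest in Mthfd1S+/- mouse 2; they were picked after their values were seen. Mir453, the 1 of them that was not dim, read 6.28 and 7.07 in the Mthfd1S+/- mice, against 6.50, 6.30, 5.93 and 6.80 in the WT mice. Mir541, which alone of the 43 was at an unadjusted p under 0.05, read 3.80 and 4.39 in the Mthfd1S+/- mice, against 3.26, 3.77, 3.56 and 3.74 in the WT mice. Its log2 fold change was 0.51 ± 0.19 (SE), or 0.21 without mouse 2, and its adjusted p in limma was 0.837. Mir300 spanned most, with 3.02 and 4.25 in the Mthfd1S+/- mice, against 3.65, 2.92, 2.76 and 3.48 in the WT mice. Such rows read the gene's transcript and cannot tell the mature microRNA from its precursor. Their mature sequences are shown to identify them, with the seed (bases 2 to 8) in capitals, from RefSeq (GRCm38.p6), and no 2 of the seeds are the same.
mmu-miR-453: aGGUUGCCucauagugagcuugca
mmu-miR-541-5p: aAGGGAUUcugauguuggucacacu
mmu-miR-541-3p: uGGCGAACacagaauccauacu
mmu-miR-300-5p: uUGAAGAGagguuauccuuugu
mmu-miR-300-3p: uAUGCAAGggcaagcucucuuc

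On distal chromosome 7, Kcnq1ot1 is a paternally expressed noncoding RNA that silences its neighbours on the same chromosome, among them Cdkn1c, Phlda2 and Slc22a18. Kcnq1ot1 read 6.07 and 6.13 in the Mthfd1S+/- mice, against 6.68, 6.43, 6.34 and 6.17 in the WT mice. Both Mthfd1S+/- mice lay below all 4 WT mice, by a small margin to WT mouse 4. For Kcnq1ot1 the log2 fold change was -0.31 ± 0.13 (SE), with an unadjusted p of 0.0515, an adjusted p in limma of 0.837. The exact permutation test over the 15 splits gave 0.2. The log2 fold change was -0.34 without Mthfd1S+/- mouse 2 and -0.27 without mouse 1. It varied more with the WT mice, at -0.21 without WT mouse 1, -0.30 without WT mouse 2, -0.33 without WT mouse 3 and -0.38 without WT mouse 4. The 3 maternally expressed genes it can silence did not stand on the other side as a group. Cdkn1c, an inhibitor of cyclin-dependent kinases, read 5.91 and 5.96 in the Mthfd1S+/- mice, against 5.74 to 5.96 in the WT mice, with a log2 fold change of 0.12 ± 0.093 (SE). Slc22a18, a transporter of the organic cation family, had -0.010 ± 0.089 (SE) and read 8.59 and 8.54 in the Mthfd1S+/- mice, against 8.49 to 8.66 in the WT mice. Phlda2, which restrains placental growth, had -0.057 ± 0.085 (SE) on a dim row.

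The growth factor axis of imprinting links Igf2, a paternally expressed ligand, with Igf2r, a maternally expressed receptor that clears it, and Grb10, an adaptor that dampens the insulin and Igf1 receptors. Igf2 read 6.15 and 6.10 in the Mthfd1S+/- mice, against 5.95, 5.89, 6.22 and 6.17 in the WT mice, all inside the WT range. Its log2 fold change was 0.070 with a 95% interval of -0.19 to 0.33. Igf2r read 8.82 and 8.94 in the Mthfd1S+/- mice, against 8.74, 8.65, 9.18 and 8.86 in the WT mice, with a log2 fold change of 0.023 and an interval of -0.31 to 0.35. Airn, the paternally expressed noncoding RNA that overlaps Igf2r and silences it, read 5.98 and 6.17 in the Mthfd1S+/- mice, against 6.14, 6.26, 6.47 and 6.29 in the WT mice. Mouse 1 was the lowest of all 6 and mouse 2 lay just above WT mouse 1, for a log2 fold change of -0.21 ± 0.11 (SE), -0.31 without mouse 2 and -0.12 without mouse 1. Grb10 read 6.88 and 6.92 in the Mthfd1S+/- mice, against 6.73, 6.39, 6.96 and 6.70 in the WT mice, with a log2 fold change of 0.21 ± 0.14 (SE). Neither the ligand nor its receptor separated the genotypes.

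Of 18 measured genes of the wider insulin-like growth factor system that are not imprinted, 0 passed the adjusted threshold. At an unadjusted p under 0.05, 3 were higher (3.36% of all rows) and 0 lower (2.44%), and the median log2 fold change was 0.11. The genotypes did not overlap for 4 higher and 0 lower genes of the 18, where 7.96% and 6.04% of all rows did not. Igfbp3, a binding protein that carries the growth factors, read 8.73 and 9.07 in the Mthfd1S+/- mice, against 8.39, 8.30, 8.62 and 8.55 in the WT mice, with a log2 fold change of 0.44 ± 0.13 (SE; adjusted p 0.837 in limma). Both Mthfd1S+/- mice lay above the WT range. Grb7, an adaptor related to Grb10, had 0.30 ± 0.094 (SE), and Igfbp7, a binding protein of vessels and stroma, 0.24 ± 0.10, again with an adjusted p of 0.837. The receptor Igf1r had 0.043 ± 0.11 (SE) and its ligand Igf1 -0.053 ± 0.12. Of 16 fibroblast markers, none of them dim, 15 had a log2 fold change above 0 as well, with a median of 0.11 and gene-centred means of 0.043 and 0.20 in the Mthfd1S+/- mice, against -0.13, -0.26, 0.12 and 0.027 in the WT mice. Their summed log2 level was 139 to 141 in the Mthfd1S+/- mice, against 134 to 140 in the WT mice (16 genes). Their part in the result was not tested.

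Nnat on chromosome 2, which encodes the small membrane protein neuronatin, is paternally expressed and lies inside Blcap, a gene on the opposite strand. Its brighter row, the one the rule takes, read 6.24 and 6.45 in the Mthfd1S+/- mice, against 6.34, 6.30, 6.41 and 6.41 in the WT mice. The log2 fold change of that row was -0.020 ± 0.093 (SE; 95% interval -0.23 to 0.19). A dimmer row named Nnat gave another picture, with 4.59 and 5.28 in the Mthfd1S+/- mice, against 5.57, 5.78, 5.30 and 5.55 in the WT mice. Both Mthfd1S+/- mice lay below the WT range on it, mouse 2 just below WT mouse 3, and its log2 fold change was -0.62 ± 0.19 (SE; unadjusted p 0.0123, adjusted p 0.837 in limma), -0.96 without mouse 2 and -0.27 without mouse 1. The rows thus disagreed, and their row numbers place them on different strands: all 10 named neighbours of the brighter row are genes on the plus strand, like Nnat, and all 10 of the dimmer row are genes on the minus strand. Of 12036 rows whose 10 neighbours share 1 chromosome and strand, 96.5% belong to a gene on that chromosome and strand. The row just before the dimmer one is that of Blcap, which read 6.06 and 6.26 in the Mthfd1S+/- mice, against 6.49, 6.46, 6.40 and 6.51 in the WT mice. Blcap was lower in both, with a log2 fold change of -0.31 ± 0.090 (SE; unadjusted p 0.00858, adjusted p 0.837). The strand of a row is not stated in the sources used, so which transcript the dimmer row reads was not tested.

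**Figure D3:**
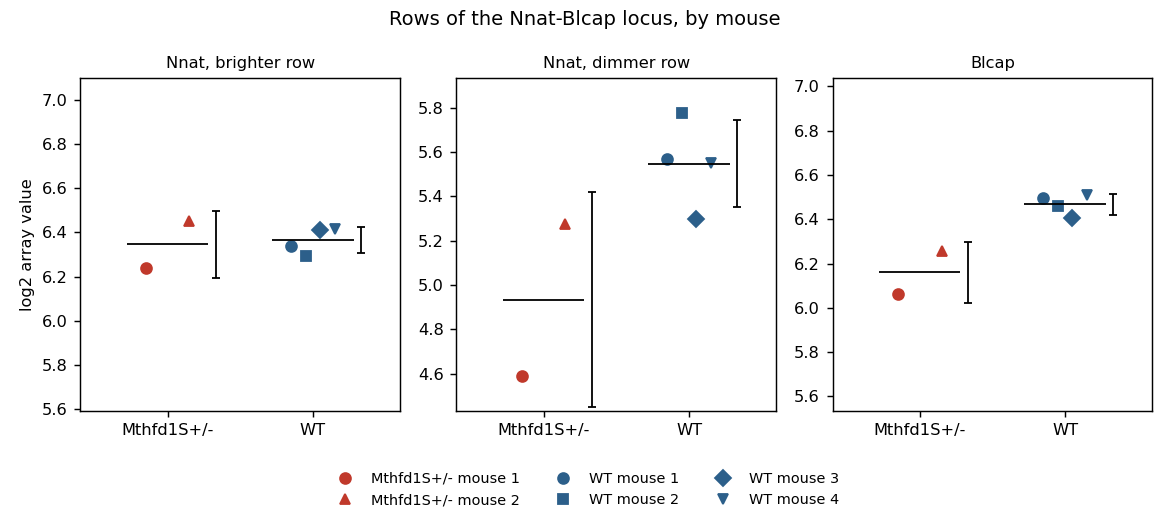
Log2 array value (y axis, each panel spanning 1.5 units) in each mouse on the 2 rows named Nnat and on the Blcap row; horizontal lines are group means and vertical bars the SD (n = 2 Mthfd1S+/-, n = 4 WT). The brighter Nnat row overlaps between genotypes, while the dimmer Nnat row and Blcap are both lower in the Mthfd1S+/- mice.

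The window around the Nnat start, at chr2:157559828-157560127 on the plus strand (RefSeq, GRCm38.p6), is shown since it is the start inside Blcap that the brighter row concerns; it holds 17 CG pairs, in capitals, and 1 copy of TGCCGC on either strand.
Nnat: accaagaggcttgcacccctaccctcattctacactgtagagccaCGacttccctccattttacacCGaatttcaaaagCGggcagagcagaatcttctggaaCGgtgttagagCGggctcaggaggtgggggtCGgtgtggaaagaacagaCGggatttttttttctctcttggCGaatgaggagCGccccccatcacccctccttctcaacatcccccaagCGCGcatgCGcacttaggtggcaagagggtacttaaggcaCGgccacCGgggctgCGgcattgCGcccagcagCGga

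The remaining imprinted genes were close to level. Nap1l5, a paternally expressed member of the nucleosome assembly protein family, read 5.91 and 6.04 in the Mthfd1S+/- mice, against 5.84, 5.76, 5.80 and 5.94 in the WT mice, and its log2 fold change was 0.14 ± 0.091 (SE). The row that carries Gnas alone varied least in WT mice, with 5.76 and 5.84 in the Mthfd1S+/- mice against 5.80 to 5.84 in the WT mice. Gnas encodes the stimulatory G protein subunit and other transcripts, and which of them this row reads was not tested. Impact, a paternally expressed regulator of the translation kinase Gcn2, read 7.48 and 7.69 in the Mthfd1S+/- mice, against 7.43 to 7.68 in the WT mice, with a log2 fold change of 0.070 ± 0.11 (SE). Zdbf2, a paternally expressed zinc finger gene, was dim and had -0.020 ± 0.089. For these 4 genes the groups overlapped.

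Of the genes that set, read or keep imprints, 24 of 25 were measured and 0 passed the adjusted threshold. In limma 0 were at an unadjusted p under 0.05 in either direction (3.36% of all rows higher, 2.44% lower). The genotypes did not overlap for 2 higher and 4 lower genes of the 24, where 7.96% and 6.04% of all rows did not. Dnmt1, which copies methylation at cell division, read 8.35 and 8.05 in the Mthfd1S+/- mice, against 8.25, 8.05, 8.19 and 8.05 in the WT mice, with a log2 fold change of 0.067 ± 0.11 (SE). The log2 fold changes were 0.061 ± 0.12 for Zfp57, 0.11 ± 0.080 for its partner Trim28 and 0.015 ± 0.085 for Ctcf, the insulator protein of the H19-Igf2 region. Tet1, which oxidises methylcytosine, had 0.26 ± 0.12 (SE; unadjusted p 0.0610 in limma), 0.086 without Mthfd1S+/- mouse 1. Arid4a, a chromatin protein linked to the Snrpn imprint in mice, had -0.24 ± 0.11 (SE; unadjusted p 0.0581), -0.067 without mouse 1. The median over the 24 genes was 0.020, against 0.012 over all rows.

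A further 41 genes that are reported as imprinted in some mouse tissue, or that adjoin imprinted genes, were listed, and 36 were measured. At an unadjusted p under 0.05, 2 were higher (3.36% of all rows) and 1 lower (2.44%), with 0 past the adjusted threshold and a median log2 fold change of 0.050. The lower one was Blcap, described above. The genotypes did not overlap for 5 higher and 1 lower of the 36 genes, where 7.96% and 6.04% of all rows did not. Slc38a4, an amino acid transporter that is paternally expressed, read 5.22 and 5.44 in the Mthfd1S+/- mice, against 4.81, 4.87, 5.09 and 4.95 in the WT mice, on a dim row. Its log2 fold change was 0.40 ± 0.11 (SE; adjusted p 0.837 in limma), and both Mthfd1S+/- mice lay above the WT range. Cd81, a tetraspanin near the Kcnq1ot1 domain, read 11.77 and 11.80 in the Mthfd1S+/- mice, against 11.54, 11.43, 11.52 and 11.72 in the WT mice, for 0.24 ± 0.099 (SE; adjusted p 0.837). Mcts2, a retrogene imprinted within its host H13, had -0.31 ± 0.15 (SE), and Herc3, the host of Nap1l5, -0.19 ± 0.10, in the opposite direction to Nap1l5 itself.

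The mice with the highest and lowest paternally expressed genes were also those with the highest and lowest markers of muscle, nerve and enteroendocrine cells, the hormone cells of the epithelium. For the paternally expressed genes the gene-centred mean was 0.018 and 0.14 in Mthfd1S+/- mice 1 and 2, against -0.11, -0.11, -0.010 and 0.069 in WT mice 1 to 4. Smooth muscle markers, given above, had their 2 highest values in the same mice, Mthfd1S+/- mouse 2 and WT mouse 4, and their 2 lowest in WT mice 1 and 2. Enteric neuron and glia markers had 0.039 and 0.35 in the Mthfd1S+/- mice, against -0.24, -0.36, 0.044 and 0.17 in the WT mice, in the same pattern at both ends. Enteroendocrine markers, of which 14 of 14 had a log2 fold change above 0 and 2 were dim, had 0.062 and 0.27 in the Mthfd1S+/- mice, against -0.26, -0.12, -0.020 and 0.074 in the WT mice. Their summed log2 level was 105 to 107 in the Mthfd1S+/- mice, against 100 to 105 in the WT mice. The part of any of these cell types in the values of the imprinted genes was not tested. The muscle and fibroblast fits given next cannot tell it apart from genotype. All 16 smooth muscle markers were highest in Mthfd1S+/- mouse 2, none of them was dim, and their summed log2 level was 159 and 166 in the Mthfd1S+/- mice, against 156 to 161 in the WT mice. Absorptive colonocyte markers ran within 0.10 of their mean on each array, with 0.023 and -0.095 in the Mthfd1S+/- mice, against -0.0056, -0.0015, 0.073 and 0.0061 in the WT mice. Fibroblast markers, given above, shared the highest mouse and the 2 lowest, but WT mouse 3 at 0.12 and not WT mouse 4 at 0.027 came second. Other lists had another order: adipocyte, goblet cell, endothelial and leukocyte markers all had their highest mean in WT mouse 3. Adipocyte markers differed most, with 8 of 9 lower and a median log2 fold change of -0.53. Their means were -0.50 and -0.40 in the Mthfd1S+/- mice, against 0.29, -0.091, 1.07 and -0.37 in the WT mice. The maternally expressed genes had -0.033 and 0.12 in the Mthfd1S+/- mice, against -0.027, -0.038, -0.032 and 0.014 in the WT mice. Their 2 highest mice were thus also Mthfd1S+/- mouse 2 and WT mouse 4, while their 2 lowest were WT mouse 2 and Mthfd1S+/- mouse 1.

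**Figure D4:**
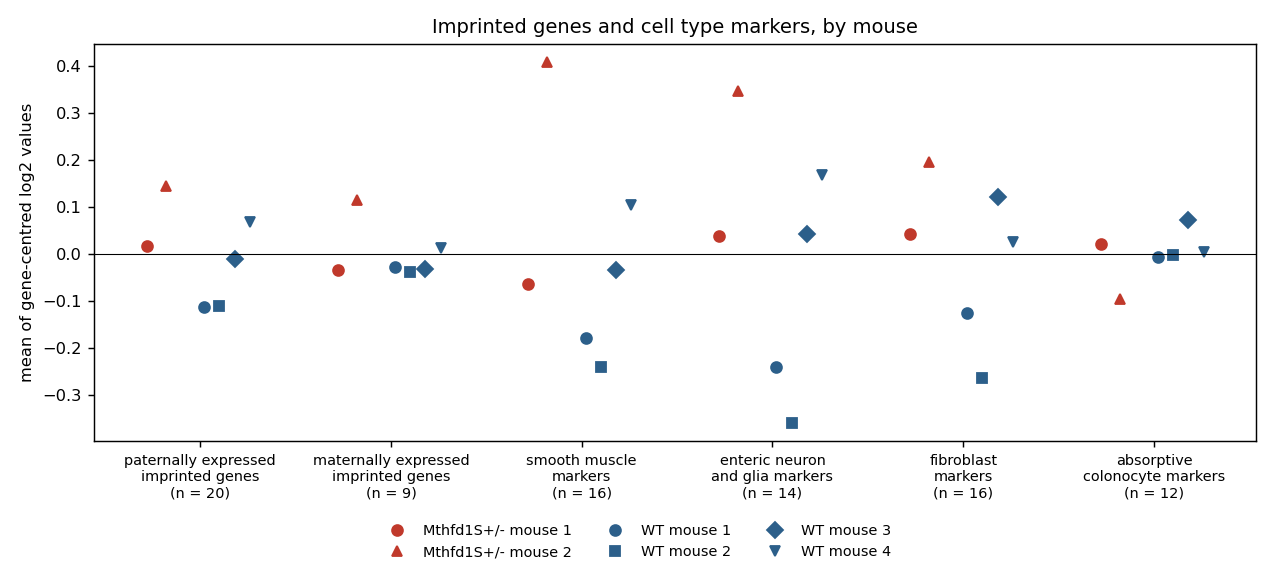
Mean of gene-centred log2 values (y axis) of each mouse for imprinted genes by expressed allele and for 4 sets of cell type markers; n is the number of genes. Mthfd1S+/- mouse 2 has the highest mean in the first 5 sets and the lowest in the absorptive colonocyte set.

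With the smooth muscle mean added to the model, the median log2 fold change of the 20 paternally expressed genes was 0.027, against 0.13 without it. Single values became -0.0063 for Mest, -0.016 for Sgce, 0.031 for Plagl1, 0.084 for Ndn, 0.053 for Rian, 0.17 for Dlk1 and 0.20 for Peg3. All of these genes were highest in Mthfd1S+/- mouse 2, where the muscle mean was highest too. A covariate that peaks in that mouse tends to lower such values, so their fall does not test a part of muscle. Peg12, Peg10 and Kcnq1ot1 moved less, to 0.27, 0.13 and -0.22, and Airn moved away from 0, to -0.32. For each of them Mthfd1S+/- mouse 1, and not mouse 2, held the highest or lowest value. Under that covariate 1 member, Airn, was at an unadjusted p under 0.05, against 4.97% of all rows, and 0 passed the adjusted threshold. With the fibroblast mean in its place, a choice made after the values were seen, 1 member, again Airn, was at an unadjusted p under 0.05 (4.82% of all rows), and the values were 0.044 for Mest, 0.079 for Sgce, 0.12 for Ndn and 0.39 for Dlk1. With 2 Mthfd1S+/- mice, 1 of which holds the highest muscle mean, genotype and tissue makeup cannot be told apart by such a fit.

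**Figure D5:**
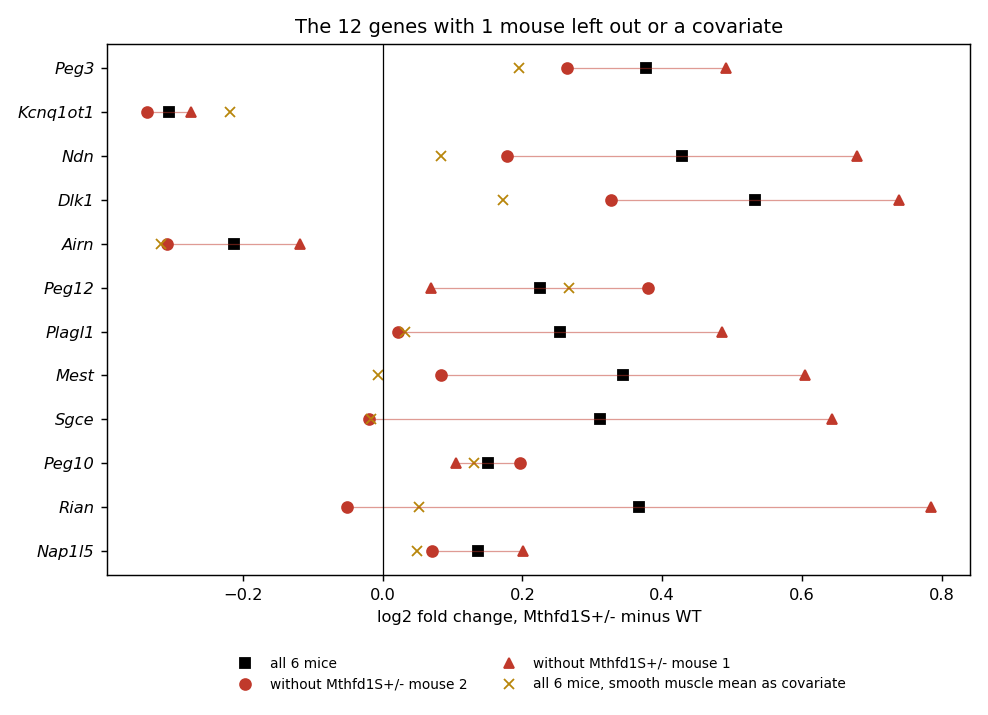
Log2 fold change (x axis, Mthfd1S+/- minus WT) of the 12 imprinted genes with the smallest unadjusted p, with all 6 mice, with either Mthfd1S+/- mouse left out, and with smooth muscle as a covariate. Sgce and Rian are near 0 without Mthfd1S+/- mouse 2 (-0.020 and -0.050), and Kcnq1ot1 differs little between the 2 left-out mice (-0.34 and -0.27). Fits with a WT mouse left out are not drawn.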

How the data were processed

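Total RNA from frozen normal colon was hybridised to 1 Mouse Gene 2.0 ST array per mouse. The deposited table holds log2 values, which the authors made, per the submitters' processing notes, in Affymetrix Expression Console. For the version, algorithm, normalization and build nothing is given in the sources used here. Values between 1.06 and 13.5 fit a log2 scale. The table has 41345 rows. Of these, 23521 carry 1 gene symbol in the platform annotation and were tested, 1814 carry several and 16010 none. Gene positions and strands come from RefSeq (GRCm38.p6), which held 23328 of the tested rows by gene ID. The strand of a row was read from its 5 nearest named rows on each side.

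The 2 genotypes were set against each other by lmFit and eBayes of limma 3.58.1 under R 4.3.3 (two-sided, without covariates; 4 residual and 4.35 prior degrees of freedom), with Benjamini-Hochberg adjustment over all tested rows and a threshold of 0.05. The steps were tested on simulated data with independent rows and changes larger than that of any member. Power at the sizes seen here was not tested. No depth applies to arrays, and their number limits the precision: the median SE of a log2 fold change was 0.106. The labels call the arrays biological replicates of separate mice. The members, gene lists and tests were chosen with earlier results of these data known. All 31 measured members are named, and the 12 with the smallest unadjusted p, together with those whose groups do not overlap, are given by mouse; up to 6 genes of each further list could be named, while Dnmt1, Zfp57, Ctcf, Igf1r, Igf1 and single microRNA genes were added for their role or after their values were seen. Replicate numbers 1 and 2 occur in both genotypes and were not taken as pairs. The deviations of same-numbered mice from their group means correlated at 0.12 and -0.044 over rows. This cannot decide on pairing, since with 2 Mthfd1S+/- mice the deviation of 1 is the negative of the other. A fit with the replicate number as a block is given below.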

Additional observations from a re-analysis of the deposited data

Results flagged for a closer look

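In the 4 WT mice, 1 of the 31 measured imprinted genes had a mouse far from the others by Dixon's criterion. Peg10 read 6.67 in WT mouse 4, against 6.47 to 6.50 in the other 3, a gap of 0.834 of the whole range, just past the 95% limit for 4 samples. Chance gives such a gap in about 1 of 20 groups.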

How the results depend on the processing

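The count of imprinted genes past the adjusted threshold was 0 in all 17 alternatives. The number at an unadjusted p under 0.05, 1 in the main analysis, was 2 with dim rows left out, 0 with unmoderated least squares, 3 with a mean-variance trend, 6 with the letter of the mouse identifier as a covariate, and 2 with the second row of Nnat and Plagl1, where the second is Nnat. With the replicate number as a block it was 8, the median log2 fold change of the imprinted genes was 0.17 and the smallest adjusted p of a member in limma 0.128. This fit leaves 1 residual degree of freedom. Replicate numbers 3 and 4 occur in WT only, so its log2 fold changes set the Mthfd1S+/- mice against WT mice 1 and 2 alone. Those 2 WT mice held the lowest value of 17 of the 31 members. Shares of all rows were taken only for the main, smooth muscle and fibroblast fits. Leaving out each WT mouse in turn gave counts of 0 to 5. A fit with 1 Mthfd1S+/- mouse left assumes that this group varies like the other, and its count is not given. Over all leave-one-out fits the medians were 0.022 to 0.11 for all members. They were 0.077 to 0.16 for paternally expressed and -0.043 to 0.083 for maternally expressed members. Adding the smooth muscle mean to the model gave a paternally expressed median of 0.027. Of 489 values of single members under the alternatives, 32 moved by more than the spread between mice and 48 had the other sign; 9 of the sign changes came without Mthfd1S+/- mouse 2, 9 with the smooth muscle mean in the model, 7 with the fibroblast mean and 4 without Mthfd1S+/- mouse 1. Quantile normalizing again and centring each array changed 5 signs each, all of small values. Testing all rows of the table, leaving out dim rows, unmoderated least squares and the mean-variance trend do not alter a log2 fold change. Their 31, 22, 31 and 31 values, among the 489, could therefore not move. The 2 Mthfd1S+/- mice and the dim rows limit all of these comparisons.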
